A study of Mus musculus with 6 samples.

Results

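The L1, NCAM and Cadm adhesion molecules were taken as 10 genes by name, L1cam, Chl1, Nrcam, Nfasc, Ncam1, Ncam2, Cadm1, Cadm2, Cadm3 and Cadm4, out of 20173 genes counted, and all 10 were found. RNA-Seq had been performed on 6 libraries of cells grown from sympathetic chains of male mice aged 3 weeks for 4 to 5 days in neural medium with B27. Both groups carried a floxed Slit2 gene, Slit2fl/fl mice (SLIT2f/f in the labels, n = 3, the controls) without Cre and Slit2th mice (SLIT2-knockout in the labels, n = 3) with Cre recombinase under the Th (tyrosine hydroxylase) promoter, on a C57BL/6J background. The deletion was thus limited to cells in which that promoter had been active, and the sources do not say whether a library came from a single mouse or a pool, so p-values measure only the spread between these libraries. The labels call the material neurons of the sympathetic ganglion, although the isolation method names dorsal root neurons.

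All 10 proteins carry immunoglobulin domains on the cell surface and hold axons and glia together. The L1 family (L1CAM, CHL1, NrCAM and neurofascin) binds ankyrin with its cytoplasmic tail and is known for axon outgrowth, fasciculation and the nodes of Ranvier. The NCAM family binds homophilically, and NCAM, encoded by Ncam1, can carry polysialic acid, which lowers adhesion. The Cadm (nectin-like) proteins bind each other across the gap between cells. Cadm4 on Schwann cells meets Cadm3 on the axon along the internode.

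Total counts per library ran from 1255939 in Slit2th replicate 1 to 3155406 in Slit2fl/fl replicate 1. A floor of 3 counts corresponded to 0.961 to 2.65 CPM (read counts scaled to a common library size, by TMM). The floors cover counting error only. Slit2 was lower in every Slit2th library (13.9 ± 2.12 CPM against 47.8 ± 6.33 CPM, SD, n = 3 each). The neuronal markers Th and Rbfox3 had 0 counts in all 6 libraries, and the 19 sympathetic neuron markers counted, led by Tubb3 and Uchl1, summed to 188 to 586 CPM. The glia markers S100b and Sox10 stood at 962 to 2577 CPM and 443 to 698 CPM. Glia markers did not all follow 1 pattern, and Cdh19, a cadherin of Schwann cell precursors chosen here after its values were seen, stood at 340, 1267 and 1121 CPM in controls and 1387, 1944 and 1975 CPM in Slit2th, without overlap and lowest in Slit2fl/fl replicate 1. Slit2fl/fl replicate 1 stood apart from the other Slit2fl/fl libraries, with a correlation of log2 CPM across genes of 0.841 and 0.863 against 0.937 between replicates 2 and 3. It had the most neuron marker counts (586 CPM against 188 and 204 in its group) and the most endothelial marker counts (132 CPM against 56.4 and 42.1, led by Egfl7 and Emcn). Most of these sums came from Tubb3 (290 CPM) and Uchl1 (236 CPM), and from Egfl7 (98.0 CPM) and Emcn (26.6 CPM). Other markers did not all follow, since Stmn2 was highest in that library (43.2 CPM) but Slc18a2 (4.48 CPM) and Map2 (8.65 CPM) lowest. Slit2th replicate 1 correlated at 0.868 and 0.867 with the other Slit2th libraries, which correlated at 0.965. It had the most macrophage marker counts (669 CPM against 127 and 148 in its group and 33.5 to 128 in Slit2fl/fl, led by Lyz2 and Aif1). Fibroblast markers (Vim and Col1a2 the highest) summed to 14163 to 21968 CPM in controls and 22688 to 25279 CPM in Slit2th. Most of this sum was Vim, at 11358 to 18049 CPM in controls and 17745 to 19715 CPM in Slit2th, overlapping. Of 14 tested fibroblast markers, 12 had positive log2 fold changes (higher in Slit2th) and 2 negative ones, with a median of 0.57. All 10 tested macrophage markers were positive, with a median of 1.73, against -0.047 over all tested genes. None of either list had an adjusted p under 0.05 by edgeR. Proliferation markers (Top2a and Mki67 the highest) summed to 319 to 440.1 CPM in controls and 177 to 317 CPM in Slit2th. How much of any value below comes from these differences in the cultures, or from those in depth, was not tested. In bulk libraries fewer cells of a type and less RNA per cell cannot be told apart.

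The level of each gene was compared with the others per length, as CPM per kb of merged exons. Cadm1 (69.2 ± 19.6 CPM per kb, SD, n = 6) and Cadm4 (62.9 ± 32.5 CPM per kb) stood highest, at the 94.9th and 94.3rd percentile of all tested genes. Nrcam (28.8 ± 4.52 CPM per kb) and L1cam (16.6 ± 3.54 CPM per kb) followed at the 88.8th and 82.0th percentile. Chl1 (7.34 ± 2.26 CPM per kb), Ncam1 (6.55 ± 1.48 CPM per kb) and Nfasc (4.72 ± 1.35 CPM per kb) lay in the middle of the range. Cadm2 (0.798 ± 0.453 CPM per kb), Cadm3 (0.542 ± 0.338 CPM per kb) and Ncam2 (0.420 ± 0.268 CPM per kb) were the lowest, at the 16.4th, 10.5th and 7.16th percentile. Of 9 steps between neighbours in this order, 4 separated all 6 libraries without overlap, namely Cadm4 above Nrcam, Nrcam above L1cam, L1cam above Chl1 and Nfasc above Cadm2. Each of the 4 had p = 0.0312 (two-sided exact sign-flip permutation test over 6 libraries, the smallest p possible) and an adjusted p of 0.0703 over the 9 steps, so none passed after adjustment. The order was taken from these same values, and a step without overlap must give the smallest p. The test therefore cannot decide on the order, and these p-values are given as description only. In the other 5 steps the ranges overlapped, with an unadjusted p of 0.125 to 0.719 in the same exact test. The step from Nfasc to Cadm2 was the widest, a 5.92-fold difference of the means. Lengths of the longest coding transcript, an alternative added with the data in view, brought Cadm4 and Nrcam together (ratio 1.03 instead of 2.18) and set Cadm1 2.56-fold above Cadm4 instead of 1.10-fold, so these gaps depend on the length used.

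**Figure D1:**
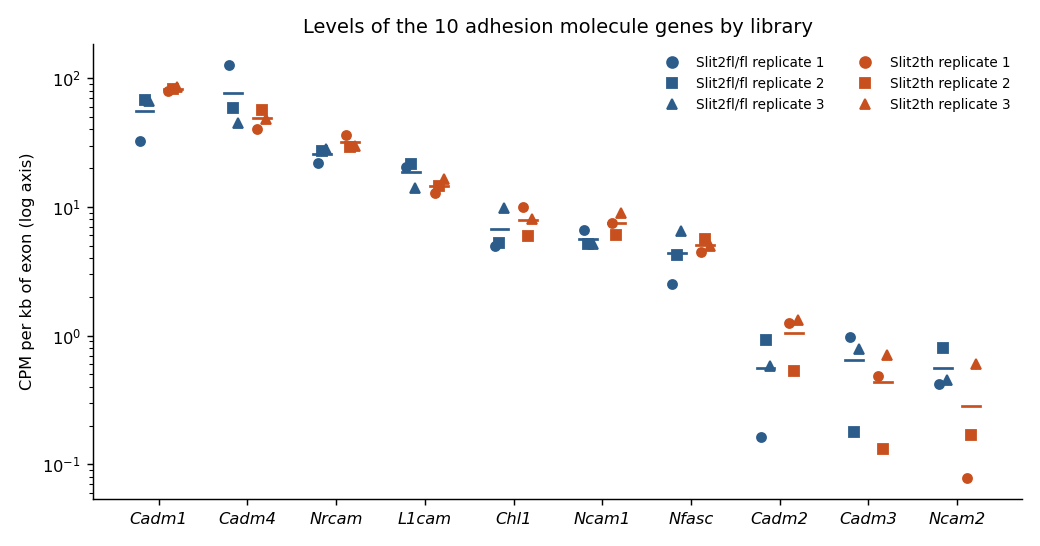
Level of each of the 10 genes in CPM per kb of merged exons (log axis), with a point for each library and a bar for each group mean. The genes fall into 7 from 2.51 to 128 CPM per kb and 3 from 0.0779 to 1.32 CPM per kb.

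Whether these transcripts differed between the genotypes was then asked by comparing Slit2th with Slit2fl/fl libraries. These were bulk cultures in which Th itself had 0 counts, so the comparison is not one of Th-expressing cells. Of the 10 genes, 0 passed the test for a change. All 10 passed the filter of at least 1 CPM in at least 3 libraries, and 0 had an adjusted p under 0.05 over 12152 genes in edgeR's quasi-likelihood test (0.558 to 0.859), where 0% of all tested genes did. At an unadjusted p under 0.05 there were also 0 of 10, against 10.8% of all tested genes, and DESeq2 and edgeR's exact test likewise gave 0 of 10 at either threshold. The 3 genes to which DESeq2 gave no adjusted p were Ncam2, Cadm2 and Cadm3. Positive log2 fold changes (higher in Slit2th) were seen for 6 genes and negative ones for 4, with a median of 0.22 against -0.047 over all tested genes. The 95% interval of every one of the 10 included 0. The targeted gene Slit2 did not pass either (adjusted p = 0.422 by edgeR), so 0 of 10 does not show that these genes were unchanged. The groups did not overlap for 2 of 10 genes, Nrcam and Cadm1, both higher in Slit2th, against 8.74% of tested genes higher and 18.5% in either direction.

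**Figure D2:**
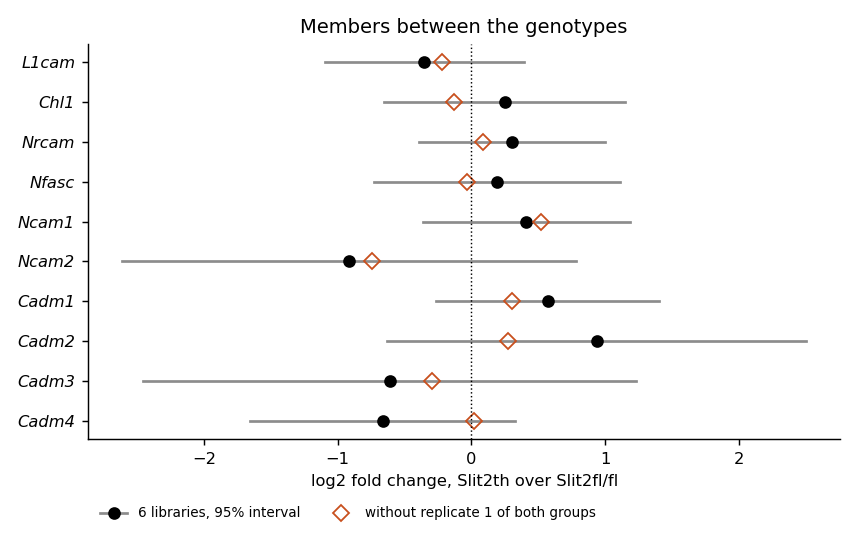
Log2 fold change of each gene, Slit2th over Slit2fl/fl, with its 95% interval from edgeR's quasi-likelihood fit (filled points, 6 libraries) and the value without replicate 1 of both groups (open diamonds). All 10 intervals cross 0, and the diamond of Cadm4 lies at 0.019 where its filled point lies at -0.66.

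In the L1 family, Nrcam (ENSMUSG00000020598, chromosome 12 of GRCm38, 44328885 to 44601964, plus strand) encodes NrCAM, a partner of neurofascin at the node. It stood at 295, 364 and 374 CPM in control replicates 1, 2 and 3 and at 482, 393 and 400 CPM in Slit2th replicates 1, 2 and 3. All 3 Slit2th values lay above all 3 control values, although Slit2fl/fl replicate 3 and Slit2th replicate 2 were close (p = 0.10 in an exact two-sided permutation test of log2(CPM + 1), the lowest that groups of 3 can give). Its estimated log2 fold change was 0.30 (standard error 0.31, 95% interval -0.39 to 0.997, adjusted p = 0.694 by edgeR), and it was 0.089 without replicate 1 of both groups.

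L1cam (ENSMUSG00000031391, chromosome X, 73853778 to 73896105, minus strand), the founding gene of the family, stood at 149, 158 and 103 CPM in controls and 94.4, 106 and 121 CPM in Slit2th. Slit2fl/fl replicates 1 and 2 were above all Slit2th libraries, while Slit2fl/fl replicate 3 lay among them. The log2 fold change was -0.35 (standard error 0.33, 95% interval -1.09 to 0.39, adjusted p = 0.670 by edgeR). The exons of L1cam share 100 bp with those of Arhgap4 on the same strand.

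Chl1 (ENSMUSG00000030077, chromosome 6, 103510586 to 103750211, plus strand) encodes the close homolog of L1. It stood at 61.5, 64.2 and 122 CPM in controls and 122, 73.0 and 99.3 CPM in Slit2th, and the highest library of each group reached the same level. The estimate of 0.25 on the log2 scale (standard error 0.40) turned to -0.13 without replicate 1 of both groups. Nfasc (ENSMUSG00000026442, chromosome 1, 132564690 to 132741797, minus strand) encodes neurofascin, which has glial and axonal isoforms that a count per gene does not separate. It stood at 35.5, 60.3 and 91.5 CPM in controls and 63.5, 79.2 and 70.6 CPM in Slit2th. The Slit2th libraries all lay inside the range of the Slit2fl/fl libraries. The log2 fold change of 0.19 (standard error 0.41) was -0.090 without Slit2fl/fl replicate 1, so neither Chl1 nor Nfasc held its sign.

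The makeup of the L1 family leaned on Nrcam and L1cam in every library. Nrcam took 44.3, 46.8 and 47.9% of the family's summed CPM per kb in controls and 57.0, 53.1 and 50.3% in Slit2th. L1cam took 40.6, 36.9 and 24.1% in controls and 20.3, 26.1 and 27.7% in Slit2th, so its share overlapped between the groups while that of Nrcam did not. These shares were chosen after the values were seen and were not tested. The summed level of the family was 49.9 to 58.5 CPM per kb in controls and 55.4 to 63.3 CPM per kb in Slit2th, overlapping.

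In the NCAM family, Ncam1 (ENSMUSG00000039542, chromosome 9, 49502136 to 49798925, minus strand) encodes NCAM, which immature and nonmyelinating Schwann cells are known to carry. It stood at 57.0, 44.7 and 44.3 CPM in controls and 65.3, 52.0 and 77.3 CPM in Slit2th. The groups overlapped through a single pair of libraries, since control replicate 1 exceeded Slit2th replicate 2 (p = 0.20, exact permutation test). The log2 fold change was 0.41 (standard error 0.34, 95% interval -0.36 to 1.19, adjusted p = 0.633 by edgeR), and it stayed between 0.20 and 0.56 in the 16 other settings. An antisense gene, Gm11149, shares 417 bp with its exons, and use of strand in the counting is not given in the sources used here.

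Ncam2 (ENSMUSG00000022762, chromosome 16, 81200697 to 81626828, plus strand), known from olfactory axons, had 15, 14 and 9 counts in controls and 1, 4 and 12 counts in Slit2th. Only Slit2th replicate 1 was at or under the floor of 3 counts. At 55 counts in all 6 libraries, the log2 fold change of -0.91 had a 95% interval of -2.61 to 0.79, wide enough to hold a fall to 0.164 of the control level as well as a rise to 1.72 times that level. Without Slit2th replicate 3 it was -2.03 (unadjusted p = 0.0449), and without Slit2th replicate 1 it was -0.53, so the size rested on single libraries. Ncam1 exceeded Ncam2 per kb in every library, by 6.45-fold in Slit2fl/fl replicate 2 to 96.8-fold in Slit2th replicate 1, where Ncam2 had its single count.

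In the Cadm family, Cadm1 (ENSMUSG00000032076, chromosome 9, 47530173 to 47857637, plus strand) encodes a nectin-like protein also known as SynCAM1. Its counts were 1060, 1091 and 1225 in controls and 949, 1795 and 1587 in Slit2th. These were 339, 707 and 696 CPM in controls and 838, 856 and 896 CPM in Slit2th, so that the Slit2th libraries were close together and all above the controls (p = 0.10, again the lowest possible in the exact test). The log2 fold change was 0.57 (standard error 0.37, 95% interval -0.26 to 1.41, adjusted p = 0.558 by edgeR). Slit2fl/fl replicate 1 was far below the other controls, and without it the log2 fold change was 0.30 (adjusted p = 0.704 by edgeR). The glia marker Cdh19, given above, was likewise lowest in that library and higher in every Slit2th library. Sox10 was instead highest in that library (698 CPM), and of 14 tested glia markers 6 had positive and 8 negative log2 fold changes. The fibroblast marker sum given above, mostly Vim, was also lowest in that library (14163 CPM) and higher in every Slit2th library than in the controls. The parts of the glia and of the fibroblasts in the Cadm1 result were not tested.

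Cadm4 (ENSMUSG00000054793, chromosome 7, 24482023 to 24504539, plus strand), the Schwann cell receptor for axonal Cadm3, had the opposite pattern in that library. It stood at 276, 127 and 96.7 CPM in controls and 87.4, 124 and 105 CPM in Slit2th. Apart from Slit2fl/fl replicate 1, the ranges of the groups overlapped. The log2 fold change of -0.66 (standard error 0.44, adjusted p = 0.563 by edgeR) was -0.087 without Slit2fl/fl replicate 1 and 0.019 without replicate 1 of both groups. The ratio of Cadm4 to Cadm1 per kb was 3.92 in Slit2fl/fl replicate 1 and 0.504 to 0.868 in the other 5 libraries, so Cadm4 led the family in that library alone. This is also the library with the highest neuron and endothelial marker sums given above, although not all markers of those lists were high in it. Glia markers differed there, with Sox10 highest in that library and Cdh19 lowest. The part of any cell type in the Cadm4 result was not tested.

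**Figure D3:**
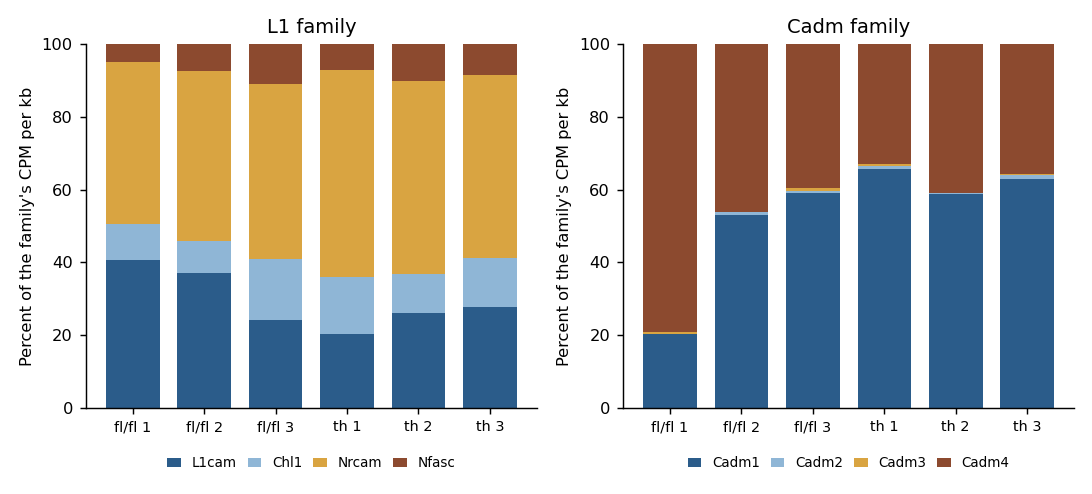
Percent of the summed CPM per kb of the L1 family (left) and the Cadm family (right) taken by each gene in each of the 6 libraries. Cadm4 takes 79.1% in Slit2fl/fl replicate 1 and 33.0 to 46.1% in the others, and Cadm2 and Cadm3 together are barely visible.

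Cadm3 (ENSMUSG00000005338, chromosome 1, 173333258 to 173367695, minus strand), the axonal partner of Cadm4, had 22, 2 and 10 counts in controls and 4, 2 and 9 counts in Slit2th. Its level was at or under the floor in replicate 2 of each group, and its log2 fold change of -0.61 had a 95% interval of -2.45 to 1.23. The exons of Cadm3 share 361 bp with Ackr1 on the same strand, so some of these few reads could belong to that gene. Cadm2 (ENSMUSG00000064115, chromosome 16, 66655421 to 67620908, minus strand), which is known from axons and synapses, had 5, 14 and 10 counts in controls and 14, 11 and 23 counts in Slit2th. Its log2 fold change was 0.94 (95% interval -0.63 to 2.50, adjusted p = 0.599 by edgeR), and the groups overlapped. It shares 256 bp of exons with 1700010K23Rik on the other strand. No difference was detected for Cadm2, Cadm3 or Ncam2. These genes had few counts and varied widely within a group, with an SD of 37.6 to 98.7% of the group mean CPM. Over the family, the summed level was 113 to 161 CPM per kb in controls and 122 to 140 CPM per kb in Slit2th.

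The binding partners of these proteins differed greatly in level. Contactins and Caspr proteins, the axonal partners of glial neurofascin and of NrCAM, were nearly absent. Of 13 listed, 8 were in the table, and the 8 summed to 0 to 2.88 CPM per library. None passed the filter, Cntn2, Cntn3 and Cntnap2 had 0 counts in all libraries, and the highest count of any was 7, of Cntnap1 in Slit2fl/fl replicate 1. Polysialyltransferases were also near the floor, with St8sia2 at 0 to 1.69 CPM and St8sia4 at 0 to 3.53 CPM.

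Some intracellular anchors and the secreted glial ligand were abundant. Ank3, an ankyrin that anchors L1 family tails, stood at 689, 1292 and 1033 CPM in controls and 1434, 1550.1 and 1475 CPM in Slit2th. All Slit2th libraries were above the controls, with Slit2fl/fl replicate 1 the lowest, as for Cadm1, and the log2 fold change was 0.57 (standard error 0.35, adjusted p = 0.541 by edgeR). Ank2, another ankyrin of the same list, was lower in Slit2th without overlap. It stood at 49.6, 35.6 and 30.1 CPM in controls and 28.2, 23.9 and 28.2 CPM in Slit2th. Its log2 fold change was -0.53 (adjusted p = 0.584 by edgeR). Gldn encodes gliomedin, the Schwann cell ligand of neurofascin and NrCAM. It stood at 611 ± 48.8 CPM in controls and 582 ± 47.6 CPM in Slit2th (SD, n = 3 each), and the log2 fold change was -0.070 with a 95% interval of -0.75 to 0.61. The shedding protease gene Adam10 stood at 944 ± 328 and 932 ± 121 CPM (SD, n = 3 each).

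Across the 4 partner lists, 47 of 71 genes in the table were tested, 0 passed after adjustment, and at an unadjusted p under 0.05 there was 1 higher and 1 lower, against 3.99% higher and 6.78% lower of all tested genes. Among the 16 tested cytoskeletal partners, 9 log2 fold changes were positive and 7 negative (median 0.12), and 0 had an unadjusted p under 0.05. The highest after Ank3 were Ezr and Msn, which link membrane proteins to actin, with log2 fold changes of -0.35 and -0.072. Among the 14 tested polysialic acid enzymes, co-receptors and shedding proteases, 5 were positive and 9 negative (median -0.047). Fgfr1, a growth factor receptor that binds L1 and NCAM, had an unadjusted p of 0.0393. It stood at 90.9, 109.5 and 93.2 CPM in controls and 175, 201 and 130.4 CPM in Slit2th, without overlap, a log2 fold change of 0.78 (standard error 0.33, adjusted p = 0.458 by edgeR). Itgb1, the integrin beta 1 subunit, stood at 470 ± 66.2 CPM in controls and 307 ± 2.60 CPM in Slit2th (SD, n = 3 each), with a log2 fold change of -0.61 (adjusted p = 0.487 by edgeR).

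Among the 17 tested other immunoglobulin adhesion molecules, 9 were positive and 8 negative (median 0.073). Bcam, a laminin receptor, had an unadjusted p of 0.0331. It stood at 32.7, 7.78 and 7.39 CPM in controls and 5.30, 5.25 and 4.52 CPM in Slit2th, with Slit2fl/fl replicate 1 far above the other 5 libraries, and its log2 fold change was -1.69 (adjusted p = 0.444 by edgeR). The highest of this list were Mcam, Negr1 and Pvr, with log2 fold changes of 0.86, 0.71 and 0.14. Pvr encodes a relative of the nectins, and Negr1 a neuronal adhesion protein of the IgLON family. Over the 4 lists, 6 genes were higher and 5 were lower without overlap of the groups, against 8.74% higher and 9.72% lower of all tested genes.

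**Figure D4:**
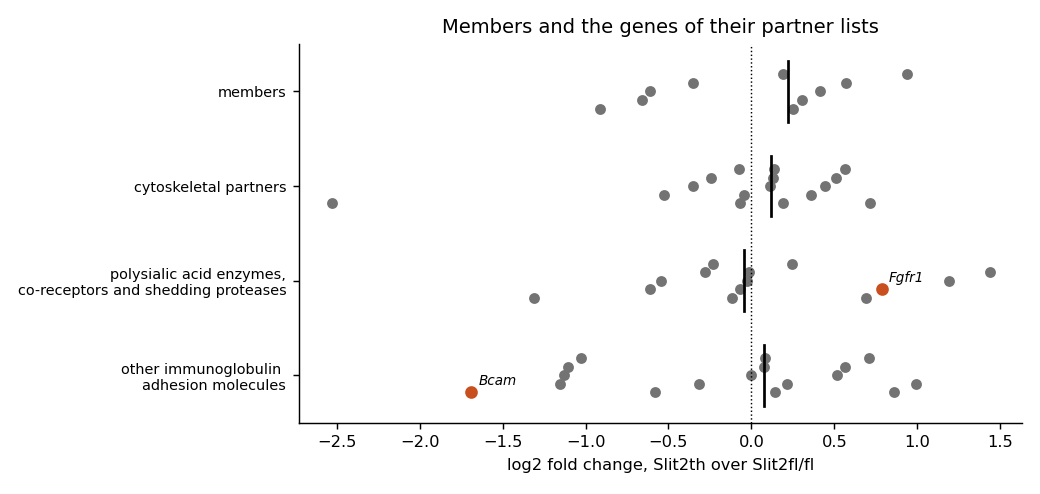
Log2 fold change of each tested gene, Slit2th over Slit2fl/fl, for the 10 adhesion molecules and the 3 partner lists with tested genes, with a vertical bar at each median. Fgfr1 and Bcam (colored) are the genes with an unadjusted p under 0.05, and the medians lie between -0.047 and 0.22.

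For the 3 members with the highest CPM, the genes with the most similar log2 CPM over the 6 libraries were found by Pearson's correlation, which is given as a description. Closest to Cadm1 were Ogn, Spp1 and Aff4 (r = 0.998 each), closest to Nrcam were Retreg1, Gxylt2 and Ube2a (r = 0.998, 0.995 and 0.994), and closest to Cadm4 were Tnfrsf23, Dok1 and Ly6g6d (r = 0.997, 0.996 and 0.995). With 6 points many genes come close, and r exceeded 0.95 for 414, 107 and 149 genes. Slit2fl/fl replicate 1 was the lowest library for the genes closest to Cadm1 and the highest for those closest to Cadm4, while Slit2th replicate 1 was the highest for those closest to Nrcam.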

How the data were processed

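RNA was sequenced from 3 Slit2fl/fl and 3 Slit2th libraries, grouped by the genotype in the labels. The authors made TruSeq libraries, aligned reads with HISAT2 to mm10 (the labels name GRCm39) and deposited whole-number read counts per gene, not normalized. The counting program and annotation are not given in the sources used here. Gene identifiers were joined to GENCODE M21 (GRCm38), where 20166 of 20173 were found, for positions and merged exon lengths. From the deposited counts, genes with at least 1 CPM in at least 3 libraries were tested in R 4.3.3 with edgeR 4.0.16 (TMM, quasi-likelihood test, no covariates, Benjamini-Hochberg adjusted p under 0.05). Exact permutation tests used log2(CPM + 1). Alternatives used DESeq2 1.42.0, other scalings and filters, the replicate number as a block, and left-out libraries. The members and lists were chosen with earlier results of these data known. Partners named were the 3 highest by CPM per list and those with an unadjusted p under 0.05, others being chosen after their values were seen. Some genes stand on more than 1 list, and the summed glia markers are not reported here.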

Additional observations from a re-analysis of the deposited data

How the results depend on the processing

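In every setting 0 of the adhesion molecules passed the adjusted threshold. Of all tested genes, 0 passed, against 7 without the CPM filter, 34 with DESeq2, 17 with edgeR's exact test and 0 to 377 with libraries left out, the most without replicate 1 of both groups; the cause was not tested. Members whose groups did not overlap were 2, and 2 to 7 with libraries left out, where fewer libraries had to be separated. They were 6 without Slit2fl/fl replicate 3 (29.1% of all tested genes), 4 without Slit2th replicate 2 (25.3%), 5 without replicate 2 of both groups (41.1%) and 7 without replicate 3 of both groups (35.6%). They were 2 without Slit2th replicate 1 (36.6%) and 3 without Slit2fl/fl replicate 1 (26.7%) or Slit2fl/fl replicate 2 (32.9%). Without Slit2th replicate 3 (24.8%) or replicate 1 of both groups (48%) they were also 3. Nrcam and Cadm1 were among them each time. Groups apart with all 6 libraries stay apart when libraries are left out, save for small changes in scaling, so this is no separate evidence. An unadjusted p under 0.05 was reached by Ncam2 without Slit2th replicate 3 or without replicate 3 of both groups, where the log2 fold change was -2.15, and by 0 members in the other settings. Signs turned for Nfasc (-0.090 to 0.52 with 1 library left out, the lowest without Slit2fl/fl replicate 1), and without replicate 1 of both groups for Nfasc (-0.034), Chl1 (-0.13) and Cadm4 (0.019). In level, with 1 library left out the ratio of Cadm1 to Cadm4 was 0.994 (without Slit2th replicate 1) to 1.53 (without Slit2fl/fl replicate 1), and that of Chl1 to Ncam1 was 0.998 (without Slit2fl/fl replicate 3) to 1.19. By transcript length, Cadm3 to Ncam2 was 0.978. Same-numbered libraries deviated together with correlations of 0.290, 0.242 and 0.0795, and Slit2fl/fl replicate 2 correlated slightly better with Slit2th replicate 3 (0.252). Such small differences do not decide whether the numbers pair the libraries. With the replicate block 0 genes passed, and the log2 fold change of Cadm1 was 0.64. The smallest adjusted p of the quasi-likelihood test was 0.115 with the block and 0.357 without it. Low counts and the spread between libraries limit Cadm2, Cadm3 and Ncam2, at 49 to 77 counts in all.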
